A study of Citrus x limon with 9 samples.

Results

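The histone and DNA replication genes of lemon buds were examined across a water deficit. Members were found by words in the protein-match text of the deposited table (histone H1, H2A, H2B, H3 or H4, DNA replication, minichromosome maintenance, DNA polymerase, proliferating cell nuclear antigen, ribonucleoside-diphosphate reductase or origin recognition), leaving out methyltransferases and demethylases. These words found 42 of 22353 genes, and 37 of the 42 reached an FPKM (a read level scaled for gene length and library size) of 1 in 3 or more of the 9 libraries. The buds were the terminal bud and the 5 below it on spring flushes of Femminello lemon (Citrus x limon), grafted on trifoliate orange and 1 to 2 years old. Stage 1 was sampled 1 week before the deficit, while trees were watered every 2 days in a greenhouse kept at 23 °C or above. Stage 2 was sampled 1 week into a deficit that lasted 2 weeks, and stage 3 was sampled 1 week after full watering resumed, when flower buds could be seen by eye. Each stage had 3 biological replicates, taken from separate groups of trees. No watered trees of the stage 2 and stage 3 dates were among these libraries, so the deficit and the passing of time (sampling date, bud age) cannot be told apart.

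A plant cell copies its DNA once in each division cycle, during S phase. The origin recognition complex (ORC) marks the start sites and loads the MCM2 to MCM7 ring, which becomes the replicative helicase when the GINS complex (SLD5, PSF1, PSF2 and PSF3) joins it. DNA polymerase alpha starts each new strand, polymerases delta and epsilon extend it on the sliding clamp PCNA, and ribonucleotide reductase supplies the deoxynucleotides. Core histones H2A, H2B, H3 and H4 wrap the new DNA into nucleosomes and linker histone H1 binds between them. Many histone genes are transcribed mainly in S phase, while others (replacement variants) are made through the whole cycle. Genes of the MCM ring are known targets of E2F transcription factors in plants.

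At stage 2 the MCM helicase subunits and a histone H3 gene stood far below their stage 1 levels, and at stage 3 they had risen again. Their stage 3 means stayed below those of stage 1, a difference that passed the test for the H3 gene but not for MCM. The gene matched to the GINS subunit SLD5 also fell at stage 2 and then exceeded its stage 1 level at stage 3. The most abundant histones found by the words moved by less than 2-fold, and no ORC subunit or repair polymerase that passed the level filter passed a test in any comparison. In limma on log2(FPKM + 1), a gene is here said to rise or fall at an adjusted p under 0.05, and is called where the change is also at least 2-fold on that scale. Because 1 is added to each FPKM, the fitted change understates that of genes near 1 FPKM, to which MCM belongs. Less RNA per cell and fewer cells in S phase cannot be told apart in such whole buds.

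From stage 1 to stage 2, 5 of the 37 genes (13.5%) were called lower, against 4.66% of the 17729 genes tested, and none was called higher, against 3.18%. Without the fold limit 14 of the 37 fell (37.8%), against 17.1% of all genes, and 2 rose, against 21.2%. The median change of the 37 was 0.02 on the log2 scale and that of all genes was 0.05, so the falls were in a part of the genes only. From stage 2 to stage 3, 2 of the 37 were called higher, against 4.92% of all genes, and none lower, against 2.54%. Without the fold limit 7 rose, against 16.2%, and 3 fell, against 19.8%. From stage 1 to stage 3, 2 of the 37 (5.4%) were called lower, against 2.24%, and none higher, against 2.69%. Without the fold limit 7 fell (18.9%), against 12.9%, and 1 rose, against 14.4%. These counts cover genes that passed the level filter, and MCM2, MCM3, MCM6 and the polymerase alpha catalytic subunit passed it through stages 1 and 3 alone, being under 1 FPKM in all 3 stage 2 libraries. With no filter, 5 of all 42 genes were again called lower from stage 1 to stage 2, against 835 of all 22353 genes. Again 2 were called higher from stage 2 to stage 3 (863 of all genes) and 2 lower from stage 1 to stage 3 (393 of all genes). Where no gene was called by limma, a NOISeq-style rule called 0 as well, and an unadjusted p under 0.05 was reached by 3 genes upward at stage 2, 4 downward from stage 2 to stage 3 and 3 upward from stage 1 to stage 3, each under 2-fold. That rule, built like the one of the study, asks for a probability of at least 0.8 and an absolute log2 ratio of FPKM of at least 1, and with both limits it called 1 gene lower at stage 2. The 3 comparisons share libraries and are given side by side.

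**Figure D1:**
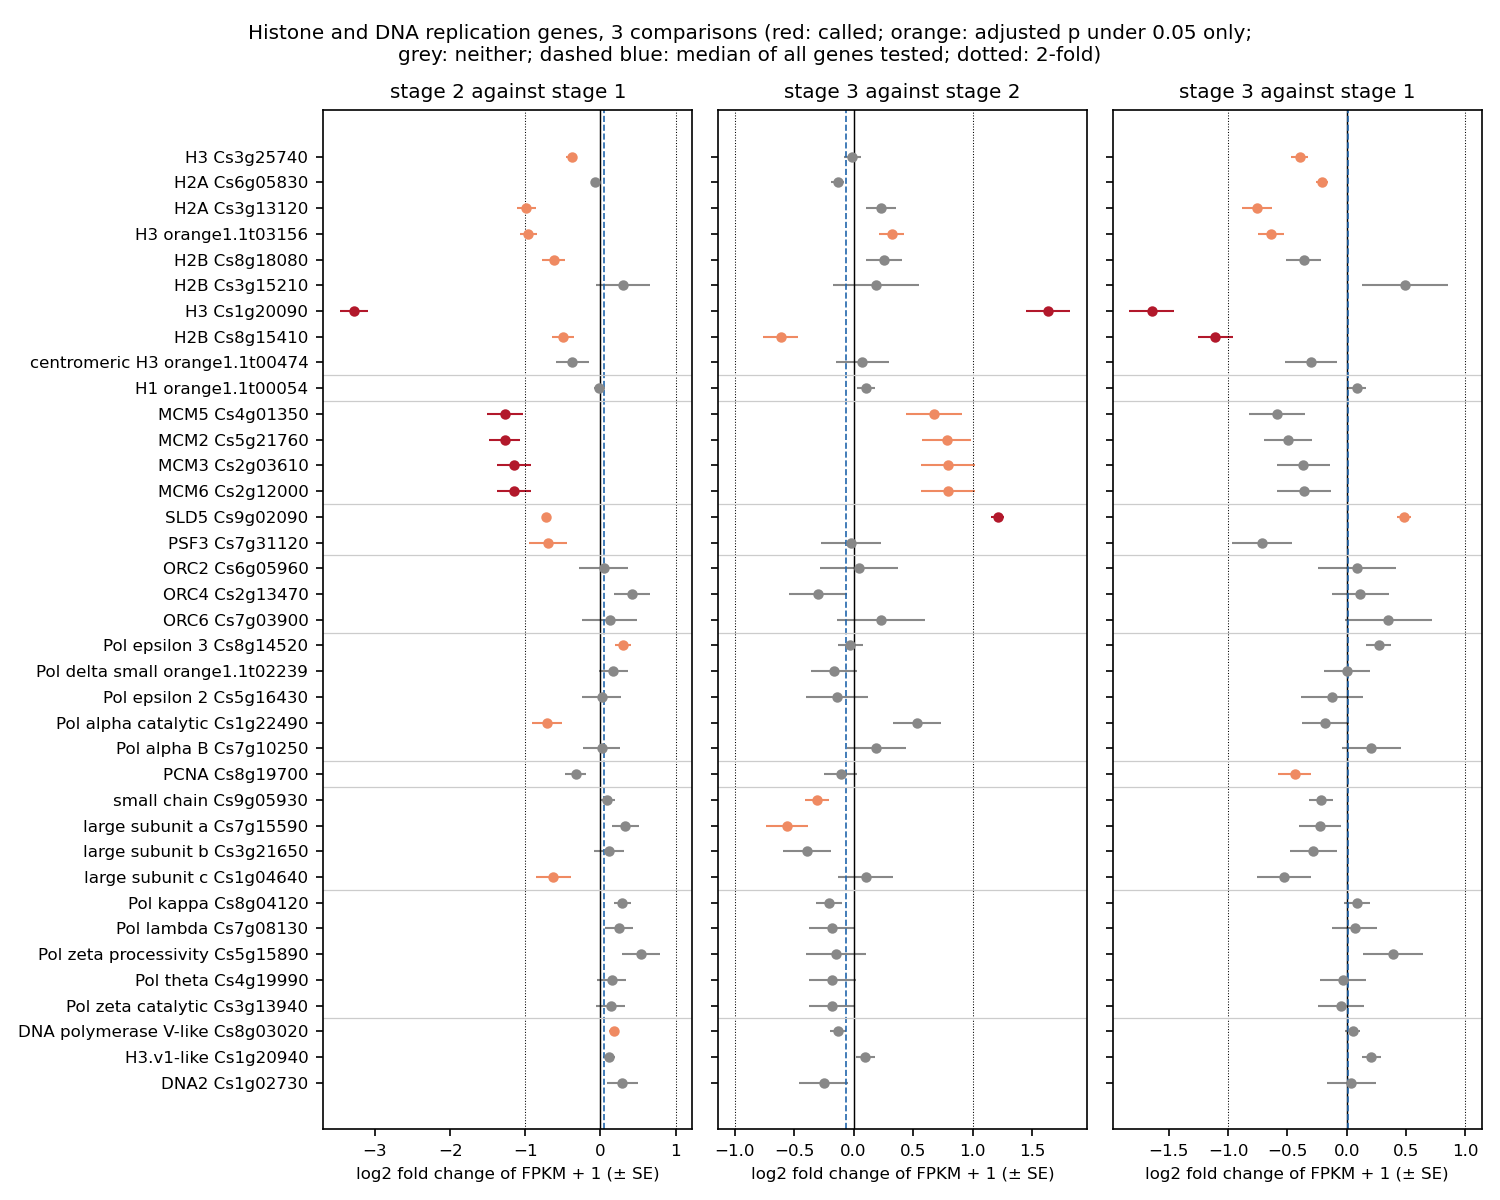
Log2 fold change of FPKM + 1 (x axis, ± SE of the limma fit on 9 libraries) of the 37 genes (rows, grouped by role) in 3 comparisons; red points are called, orange points have an adjusted p under 0.05 only, and the dashed line is the median of all genes. The H3 gene Cs1g20090 (-3.28) and the 4 MCM genes (-1.28 to -1.15) are the red points left of the others at stage 2 against stage 1.

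In the order of stage means, stage 2 was the lowest stage for 16 of the 37 genes (43.2%, against 30.5% of all genes) and the highest for 13. The most frequent order, with stage 1 above stage 3 above stage 2, held for 13 genes, MCM2, MCM3, MCM5 and MCM6 among them. For these counts of 13 the share over all genes was not taken, so whether they are unusual is not known. Stage 1 was the highest stage for 18 genes (48.6%, against 29.4% of all genes).

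Of the MCM ring, 4 subunits were found by the words, and all 4 were called lower at stage 2. MCM2 (Cs5g21760) had 2.26, 3.08 and 3.23 FPKM at stage 1, 0.68, 0.55 and 0.52 at stage 2, and 1.46, 1.65 and 2.09 at stage 3. MCM3 (Cs2g03610) had 2.33, 2.69 and 2.77 FPKM at stage 1, 0.53, 0.60 and 0.71 at stage 2, and 2.00, 2.45 and 1.1 at stage 3. Every stage 2 library of both genes was below every library of the other stages, and the stage 3 libraries of MCM3, but not of MCM2, overlapped those of stage 1. MCM5 (Cs4g01350) had 3.14, 3.32 and 3.27 FPKM at stage 1, 1.18, 0.80 and 0.39 at stage 2, and 2.43, 1.24 and 1.92 at stage 3. MCM6 (Cs2g12000) had 1.76, 2.82 and 2.13 FPKM at stage 1, 0.52, 0.65 and 0.21 at stage 2, and 1.27, 1.62 and 1.64 at stage 3. For MCM5 and MCM6 the 3 stages did not overlap, with stage 3 between the others. In these 4 genes the stage 2 mean FPKM was between 20.4% (MCM2) and 24.4% (MCM5) of the stage 1 mean, and the stage 3 mean between 57.5% (MCM5) and 71.2% (MCM3).

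On the log2(FPKM + 1) scale MCM2 fell by 1.28 (SE 0.21, adjusted p = 0.000507), MCM5 by 1.27 (SE 0.24, adjusted p = 0.00135), MCM3 by 1.16 (SE 0.23, adjusted p = 0.00197) and MCM6 by 1.15 (SE 0.23, adjusted p = 0.00203). From stage 2 to stage 3 all 4 rose, by 0.68 (MCM5, adjusted p = 0.0421) to 0.79 (MCM3, adjusted p = 0.0183), under 2-fold on this scale. Against stage 1, the stage 3 values differed by -0.59 (MCM5) to -0.36 (MCM6), with adjusted p between 0.0877 and 0.281. A remaining deficit was thus not resolved from the spread. Before adjustment the 95% intervals of MCM5 (-1.11 to -0.07) and MCM2 (-0.95 to -0.04) excluded no change, and those of MCM3 and MCM6 included it. With a pseudocount of 0.1 in place of 1 the stage 2 changes were -2.13 (MCM6) to -1.92 (MCM3), and the stage 3 rises of all 4 passed 2-fold. By the NOISeq-style rule none of the 4 falls was called: their log2 ratios of FPKM were -2.29 (MCM2) to -2.04 (MCM5), past its fold limit, and their probabilities were 0.571 (MCM6) to 0.651 (MCM5), under 0.8.

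**Figure D2:**
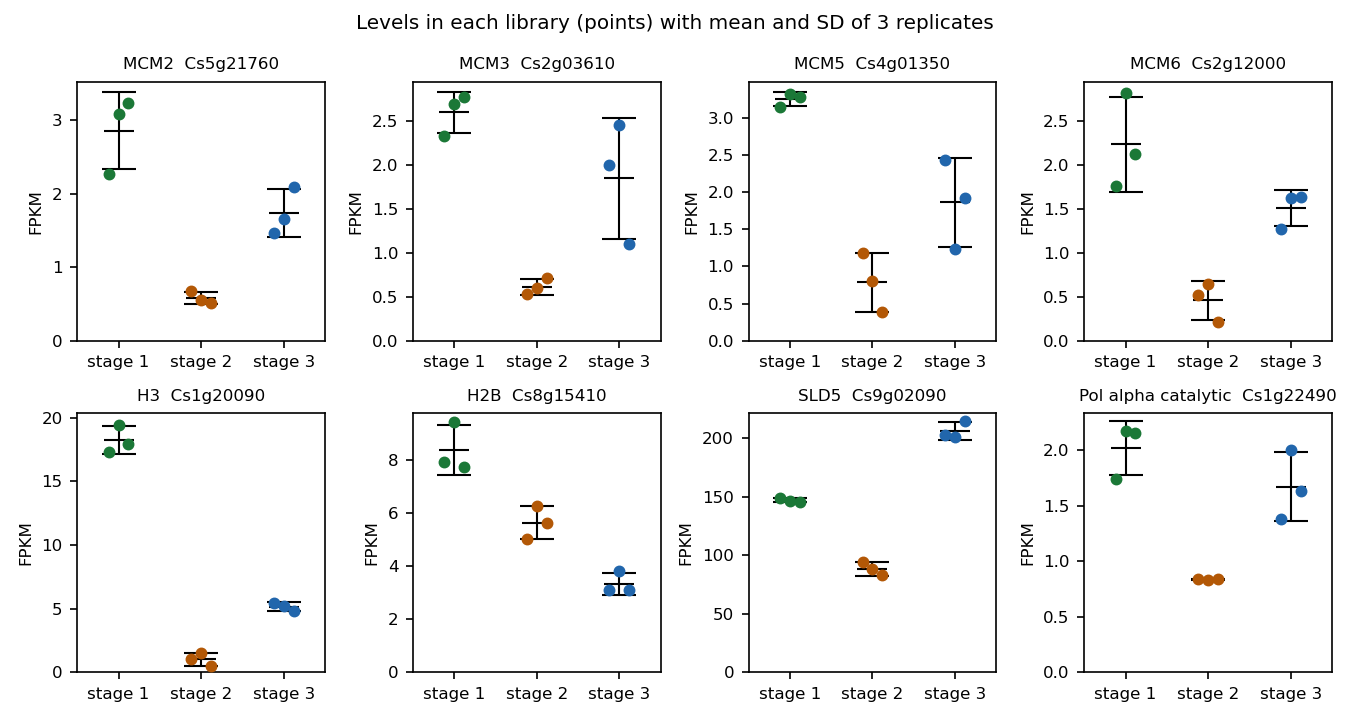
FPKM (y axis, linear from 0) of 8 genes in each of the 9 libraries (points), with the mean and SD of 3 replicates per stage (bars). The stage 2 points of the 4 MCM genes lie at 1.18 FPKM or below, those of SLD5 are the lowest of its 3 stages while its stage 3 points are the highest, and H2B Cs8g15410 is lower at each stage than at the one before.

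Of the GINS complex, which joins the MCM ring at the firing origin, SLD5 (Cs9g02090) had the highest level of the 37 genes outside the histones. Its FPKM was 148.8, 146.5 and 145.6 at stage 1, 94.7, 88.1 and 83.0 at stage 2, and 202.4, 201.2 and 215.0 at stage 3, and no stage overlapped another. Means were 147.0 ± 1.65, 88.6 ± 5.84 and 206.2 ± 7.63 (SD, n = 3). SLD5 fell by 0.73 at stage 2 (SE 0.06, adjusted p = 1.78e-06), rose by 1.21 from stage 2 to stage 3 (SE 0.06, adjusted p = 2.89e-08, called), and ended 0.48 above stage 1 (adjusted p = 6.33e-05). Its partner PSF3 (Cs7g31120) had 3.32, 3.84 and 2.05 FPKM at stage 1, 1.65, 1.65 and 1.14 at stage 2, and 1.94, 0.82 and 1.69 at stage 3. PSF3 fell by 0.70 at stage 2 (adjusted p = 0.0496) and changed by -0.02 from stage 2 to stage 3. The mean over all libraries was 147.3 FPKM for SLD5 and 2.01 FPKM for PSF3 per length. Whether the gene model Cs9g02090 holds only SLD5 was not checked, since no annotation was used here, so its level may include another transcript. PSF2 (Cs7g32510), under the level filter, had 0.47, 0.91 and 1.39 FPKM at stage 1, was listed at 0 in every stage 2 library, and at stage 3 had 0, 0 and 0.22. In the fit without a filter PSF2 fell by 0.92 at stage 2 (adjusted p = 0.00317).

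ORC, which binds origins before the MCM ring is loaded, showed no such pattern in the 3 subunits above the level filter. ORC2 (Cs6g05960) had 1.2, 3.62 and 5.03 FPKM at stage 1, 2.01, 3.67 and 3.75 at stage 2, and 3.2, 3.44 and 2.96 at stage 3. ORC4 (Cs2g13470) had 1.14, 2.23 and 1.38 FPKM at stage 1, 1.52, 2.77 and 3.13 at stage 2, and 1.71, 1.63 and 1.94 at stage 3. Stages overlapped for both, and for ORC6 (0.32 to 2.54 FPKM over all libraries, just inside the filter with 5 libraries at 1 or more). The stage 2 change was 0.04 for ORC2 (95% interval -0.68 to 0.76), 0.42 for ORC4 (-0.12 to 0.95) and 0.12 for ORC6 (-0.69 to 0.93). These intervals are wide, and falls as large as those of MCM lie outside those of ORC2 and ORC4. For ORC6 the interval cannot decide this. Its stage 1 values (0.35, 2.54 and 0.32 FPKM) are too near 0 for such a fall on a scale with 1 added. ORC1 and ORC3 were under the filter. ORC1 (Cs2g30180) had 0.78, 0.45 and 0.52 FPKM at stage 1 against 0.08, 0.08 and 0.07 at stage 2, and 0.48, 0.26 and 0.15 at stage 3, and fell by 0.55 at stage 2 in the fit without a filter (adjusted p = 0.012). The range of ORC3 (Cs7g15230) was 0.29 to 1.09 FPKM, with 1 library at 1 or more, so it lay just outside the filter.

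Among the subunits of the replicative polymerases, the catalytic subunit of polymerase alpha, which extends the primer, was the only one that fell at stage 2. That gene (Cs1g22490) had 1.74, 2.17 and 2.15 FPKM at stage 1, 0.84, 0.83 and 0.84 at stage 2, and 1.38, 2.00 and 1.63 at stage 3. Its stage 2 libraries lay below all others, at 41.4% of the stage 1 mean, and stages 1 and 3 overlapped. The fall was 0.71 (SE 0.20, adjusted p = 0.0145), and the change from stage 2 to stage 3 was 0.53 (adjusted p = 0.0557). Subunit B of the same polymerase (Cs7g10250) ranged from 0.62 to 1.67 FPKM with overlapping stages and changed by 0.02 at stage 2. The gene matched to polymerase epsilon subunit 3 (Cs8g14520), a small subunit with a histone fold, was the most abundant of the 5 and went the other way. This gene carried the KEGG entries K02326 and K08065 together, so its identity as that subunit is less sure. It had 15.6, 19.0 and 19.0 FPKM at stage 1, 22.6, 22.3 and 21.4 at stage 2, and 23.6, 19.2 and 22.4 at stage 3, a rise of 0.30 at stage 2 (SE 0.10, adjusted p = 0.0429). The small subunit of polymerase delta (orange1.1t02239) had 3.87, 3.04 and 4.09 FPKM at stage 1, 3.87, 3.85 and 5.01 at stage 2, and 3.36, 2.94 and 4.84 at stage 3. It and epsilon subunit 2 (1.66 to 4.08 FPKM) overlapped between stages, and the epsilon catalytic subunit had a mean of 0.55 FPKM over all libraries, under the filter.

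PCNA (Cs8g19700), the clamp that holds the polymerases on DNA, was lower at the later stages by small amounts. It had 8.18, 7.26 and 8.40 FPKM at stage 1, 6.81, 6.18 and 5.41 at stage 2, and 5.67, 4.95 and 6.25 at stage 3. Stage 1 stood above both later stages, which overlapped. The change was -0.33 at stage 2 (SE 0.14, adjusted p = 0.0852) and -0.44 at stage 3 against stage 1 (SE 0.14, adjusted p = 0.038). Its change from stage 2 to stage 3 was -0.11 (95% interval -0.41 to 0.20), while that of MCM2 was 0.78 (0.33 to 1.23). The difference between the genes was not itself tested.

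Ribonucleotide reductase, which makes deoxynucleotides from ribonucleotides, was measured as 1 small chain and 3 large subunits. The small chain (Cs9g05930) had 11.2, 12.4 and 12.8 FPKM at stage 1, 13.2, 12.3 and 13.6 at stage 2, and 10.2, 9.69 and 11.1 at stage 3. The most abundant large subunit (Cs7g15590) had 4.54, 3.97 and 5.24 FPKM at stage 1, 5.88, 5.26 and 6.95 at stage 2, and 2.89, 4.15 and 4.34 at stage 3. In both genes every stage 3 library was below every stage 2 library, the reverse of the order seen in MCM. They fell from stage 2 to stage 3, by 0.31 for the small chain (adjusted p = 0.0388) and by 0.56 for the large subunit (adjusted p = 0.0291), after stage 2 changes of 0.09 and 0.33 that did not pass. A less abundant large subunit (Cs1g04640) moved otherwise, with 1.66, 2.00 and 2.88 FPKM at stage 1, 1.45, 0.72 and 1.00 at stage 2, and 1.2, 1.08 and 1.27 at stage 3. It fell by 0.63 at stage 2 (adjusted p = 0.0498), and the last large subunit (Cs3g21650, 1.08 to 2.24 FPKM) passed no test.

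Core histones held 9 of the 37 genes, and 6 of the 9 fell at stage 2 (66.7%, against 17.1% of all genes). Their median change was -0.49, against 0.05 over all genes. A single one was called lower (11.1%, against 4.66% of all genes). H3 Cs1g20090 had 17.3, 19.4 and 18.0 FPKM at stage 1, 1.09, 1.52 and 0.48 at stage 2, and 5.49, 5.20 and 4.79 at stage 3. The 3 stages were far apart, the stage 2 mean being 5.64% and the stage 3 mean 28.3% of that at stage 1. It fell by 3.28 at stage 2 (SE 0.19, adjusted p = 1.65e-07), rose by 1.63 at stage 3 (SE 0.19, adjusted p = 4.43e-05) and stayed 1.64 lower than at stage 1 (adjusted p = 5.90e-05, called). This was the largest change among the 37 genes in each of the 3 comparisons, and its rise at stage 3 was not called by the NOISeq-style rule (log2 ratio 2.33, probability 0.750).

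The most abundant core histones moved far less. H3 Cs3g25740 had 288.3, 263.9 and 296.5 FPKM at stage 1, 235.1, 209.9 and 204.5 at stage 2, and 221.5, 196.6 and 226.7 at stage 3. Stage 1 stood above the other stages, which overlapped, and the gene fell by 0.39 at stage 2 (SE 0.07, adjusted p = 0.00141) and was 0.40 below stage 1 at stage 3 (adjusted p = 0.0017). H2A Cs6g05830 had 213.4, 204.0 and 211.2 FPKM at stage 1, 206.5, 205.7 and 185.5 at stage 2, and 182.4, 176.6 and 184.7 at stage 3. Stages 1 and 2 overlapped, and only stage 3 was lower than stage 1, by 0.21 (adjusted p = 0.0118). A member at the middle of the range, H2A Cs3g13120, had 74.0, 68.4 and 73.9 FPKM at stage 1, 43.5, 36.5 and 28.8 at stage 2, and 42.4, 37.8 and 46.9 at stage 3. Its fall of 0.99 at stage 2 (SE 0.13, adjusted p = 9.92e-05) lay just inside the fold limit, and it passed that limit with a pseudocount of 0.1 (-1.01).

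H2B genes differed among themselves. H2B Cs8g15410 had 7.92, 9.46 and 7.75 FPKM at stage 1, 5.04, 6.29 and 5.63 at stage 2, and 3.12, 3.83 and 3.10 at stage 3. It went down at both steps without overlap, by 0.49 (adjusted p = 0.0213) and then by 0.61 (adjusted p = 0.00762), and was called lower at stage 3 than at stage 1 (-1.11, SE 0.15, adjusted p = 0.000194), a call lost by the NOISeq-style rule (log2 ratio -1.32, probability 0.785). H2B Cs8g18080 had 34.3, 29.7 and 34.0 FPKM at stage 1, 27.8, 19.8 and 16.4 at stage 2, and 24.6, 26.7 and 24.1 at stage 3, and fell by 0.62 at stage 2 (adjusted p = 0.00708). H2B Cs3g15210 ranged from 6.21 to 19.5 FPKM with wide overlap of the stages, its highest stage 2 library being at 17.7 and its lowest at 6.21. Of the remaining H3 genes, orange1.1t03156 had 38.02, 38.45 and 36.26 FPKM at stage 1, 22.3, 18.9 and 15.9 at stage 2, and 22.3, 25.1 and 24.0 at stage 3. It fell by 0.96 at stage 2 (adjusted p = 3.64e-05) and rose by 0.32 afterwards (adjusted p = 0.0389). The centromeric H3 (orange1.1t00474), which marks the site of kinetochore assembly, had 3.35 to 3.93 FPKM at stage 1, 1.61 to 3.34 at stage 2 and 2.2 to 3.19 at stage 3, with changes that did not pass. The only linker histone found by the words, H1 orange1.1t00054, stayed between 50.04 and 62.32 FPKM in all 9 libraries, with a stage 2 change of -0.02 (95% interval -0.18 to 0.15). Plant genomes hold many copies of the core histone genes that can be close in sequence, and how reads shared between copies were assigned is not given in the sources used here, so the level of a single histone gene is uncertain.

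The repair polymerases, which fill gaps or copy past damaged bases, did not fall at stage 2. This was not particular to them: only 1 of the 5 replicative polymerase subunits tested fell, and no tested ORC subunit did. None of the 5 repair genes (kappa, lambda, theta and the catalytic and processivity subunits of zeta) passed the test in any comparison, with 1 at an unadjusted p under 0.05 (kappa, stage 2 against stage 1, change 0.29, adjusted p = 0.0535). Polymerase kappa (Cs8g04120), the most abundant, had 14.5, 14.1 and 14.9 FPKM at stage 1, 17.3, 16.7 and 20.1 at stage 2, and 15.7, 17.2 and 13.7 at stage 3. Polymerase lambda (Cs7g08130) had 6.17, 4.08 and 6.16 FPKM at stage 1, 5.56, 7.43 and 6.94 at stage 2, and 5.53, 6.97 and 4.76 at stage 3. The median stage 2 change of the 5 was 0.25, with a range of 0.13 to 0.54. Every stage 2 library of kappa was above every stage 1 library, while those of lambda overlapped.

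The remaining genes were grouped apart, most of them with other roles than replication. A DNA polymerase V-like gene (Cs8g03020), whose yeast relative is a nucleolar protein, had 42.2 to 45.6 FPKM at stage 1 and 49.2 to 50.2 at stage 2, and rose by 0.18 (adjusted p = 0.0471). An H3.v1-like gene (Cs1g20940, 31.7 to 39.5 FPKM) carried a KEGG entry that is not a histone. DNA2 (Cs1g02730), a helicase and nuclease that processes Okazaki fragments, ranged from 1.58 to 3.36 FPKM and passed no test. An RNA-directed DNA polymerase (orange1.1t04062), an enzyme of retroelements, was below 1 FPKM throughout. None of the 3 measured genes of this group was called in any comparison, so counts of calls without them, an alternative chosen after seeing the data, could not differ. DNA polymerase V-like is 1 of the 2 genes that rose at stage 2.

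The label was checked against the KEGG entries of the table, a step chosen after the values were seen. Most histone genes are described in their protein match as hypothetical proteins: of 37 genes with a single histone entry, the words had found 10, and no H4 gene was among them. Of the 36 with a KEGG histone entry that passed the level filter, 5 were called lower at stage 2 (13.9%, against 4.66% of all genes) and none higher. Among the 5, H2A Cs5g32200 reached 1 FPKM only at stages 1 and 3, so it passed the filter through the stages where it was high. Without the fold limit 20 of the 36 fell (55.6%, against 17.1%) and 3 rose (against 21.2% of all genes), and the median change was -0.40. At stage 3 against stage 1, 6 were called lower (16.7%, against 2.24%) and none higher, 21 fell (58.3%, against 12.9%) and 3 rose (against 14.4% of all genes), and the median was -0.43. The median over all genes was 0.05 and 0.01 in these comparisons. The summed FPKM of the 4 H4 genes was 720 to 736 at stage 1, 450 to 585 at stage 2 and 438 to 449 at stage 3. The sum for H1 went from 1764 to 1804 at stage 1 down to 1174 to 1316 and then 908 to 1011. A single gene, Cs1g25120, with a mean of 1399 FPKM at stage 1, carries most of the H1 sum. Of the 8 H1 genes, 3 fell at stage 2 (37.5%, against 17.1% of all genes), with a median of -0.09 over the 8. The sum for H3 went from 1039 to 1096 down to 726 to 863 and then 844 to 937. H2B differed from these, with 285 to 304 at stage 1, an overlapping 286 to 329 at stage 2 and 234 to 256 at stage 3. All genes with a KEGG histone entry together made up 0.723% to 0.738% of a library's total FPKM at stage 1, 0.506% to 0.590% at stage 2 and 0.483% to 0.513% at stage 3, and stages 2 and 3 overlapped. Cs1g25120, with means of 1399, 915.9 and 680.6 FPKM at stages 1, 2 and 3, carries a large part of this change. The share without it was not taken. Within the H1 entry an HMG-Y-related gene and a trichohyalin-like gene, both low, are not linker histones by their match. Cs1g25120 is matched to a hypothetical protein, so only its KEGG entry names it H1. All 6 genes of MCM2 to MCM7 had a KEGG entry, and the 2 that the words had missed, MCM4 (Cs8g08340) and MCM7 (orange1.1t01670), fell at stage 2 by 0.68 (adjusted p = 0.0154) and 0.90 (adjusted p = 0.00992). Summed over the 6, MCM had 15.3 to 18.9 FPKM at stage 1, 4.51 to 6.41 at stage 2 and 11.08 to 11.98 at stage 3.

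**Figure D3:**
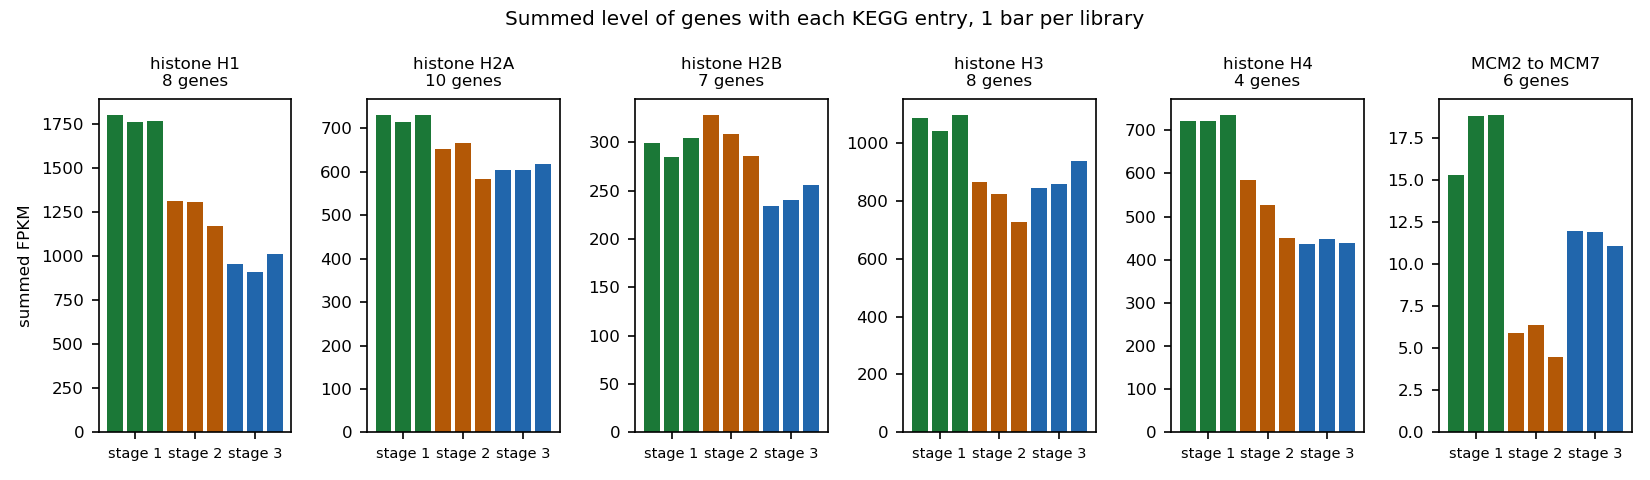
Summed FPKM (y axis, linear from 0, a separate scale in each panel) of the genes with a KEGG entry for each histone type and for MCM2 to MCM7, with 1 bar for each of the 9 libraries. MCM drops at stage 2 and rises at stage 3 to sums below those of stage 1. H1 and H4 are no higher at stage 3 than at stage 2, and H2B at stage 2 (286 to 329) overlaps stage 1 (285 to 304).

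Other genes of DNA replication and the cell cycle were taken from lists of words. Of 15 replication fork factors tested (clamp loader, replication protein A, ligases, topoisomerases and nucleases), 2 were called lower at stage 2 (4.66% of all genes) and none higher (3.18%). Without the fold limit 2 fell and 2 rose, the latter being replication factor C subunit 3 (Cs3g19870, 0.18, adjusted p = 0.028) and a DNA ligase 1-like gene (Cs8g15660, 0.36, adjusted p = 0.0488). DNA topoisomerase 2 (Cs7g01560), which untangles daughter DNA, had 3.27, 2.21 and 1.87 FPKM at stage 1, 0.36, 0.16 and 0.43 at stage 2, and 0.75, 0.85 and 1.09 at stage 3, a fall of 1.37 (adjusted p = 0.000773); it reached 1 FPKM only at stages 1 and 3. A large subunit of replication protein A (Cs5g11980), which coats single-stranded DNA, had 1.76, 2.81 and 2.59 FPKM at stage 1, 0.34, 1.01 and 0.72 at stage 2, and 0.25, 0.84 and 1.22 at stage 3, a fall of 1.01 (adjusted p = 0.014). The median of the list was -0.04. Both bifunctional dihydrofolate reductase-thymidylate synthase genes, which make thymidylate, were uncalled, though Cs8g07410 fell by 0.50 (adjusted p = 0.0381). None of the 4 histone chaperones, which hand histones to new DNA, passed at stage 2, and nucleosome assembly protein 1;2-like (orange1.1t03022) rose by 0.42 at stage 3 against stage 2 (adjusted p = 0.032).

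Of 9 mitotic phase genes tested, 5 were called lower at stage 2 and none higher (4.66% and 3.18% of all genes), with a median of -1.04. The kinase CDKB2-2 (Cs3g27820), which drives entry into mitosis in plants, had 14.8, 12.9 and 13.2 FPKM at stage 1, 4.97, 5.11 and 4.10 at stage 2, and 6.78, 8.14 and 7.87 at stage 3. Its stages did not overlap, and it fell by 1.35 (SE 0.13, adjusted p = 1.01e-05) and then rose by 0.59 (adjusted p = 0.0044). The other called genes were cyclins B2-3 (-1.37), B2-4 (-1.35), A2-1 (-1.21) and A3-4 (-1.04), each at 0.233 FPKM or less in the mean of stage 2. These 4 cyclins passed the level filter only through the stages where they were high (B2-3 through stage 1, the others through stages 1 and 3), so the count and median of the list are a description only. A2-1 (Cs4g20290) was called higher again at stage 3 (1.32, adjusted p = 0.000686). Calcyclin-binding protein (Cs2g03360), 1 of the 9, is neither a cyclin nor a mitotic kinase by its match and was caught by the word. A cyclin-B1-2-like gene (Cs6g18950), which was not called, carried a KEGG entry (K11599) unlike those of the other cyclins, so its identity is less sure. Of 5 E2F and retinoblastoma regulators tested, none was called and 3 rose at stage 2, against 21.2% of all genes. Both retinoblastoma-related genes, whose protein restrains E2F, were among the 3: Cs1g16320 rose by 0.41 (adjusted p = 0.00748) and Cs2g14790 by 0.50 (adjusted p = 0.00383), the latter from 13.0 to 15.0 FPKM at stage 1 to 19.1 to 23.2 at stage 2. E2FC (Cs3g26000), a repressor in Arabidopsis, rose by 0.69 (adjusted p = 0.0468), while E2FA and E2FB did not pass. An E2FE-like gene (Cs5g04850), under the level filter and not tested, went the other way, with 1.12, 0.99 and 0.89 FPKM at stage 1, 0, 0 and 0.24 at stage 2, and 0.23, 0.33 and 0.76 at stage 3. Calls of a list are described here by their counts and medians, and nothing particular to a list was tested.

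**Figure D4:**
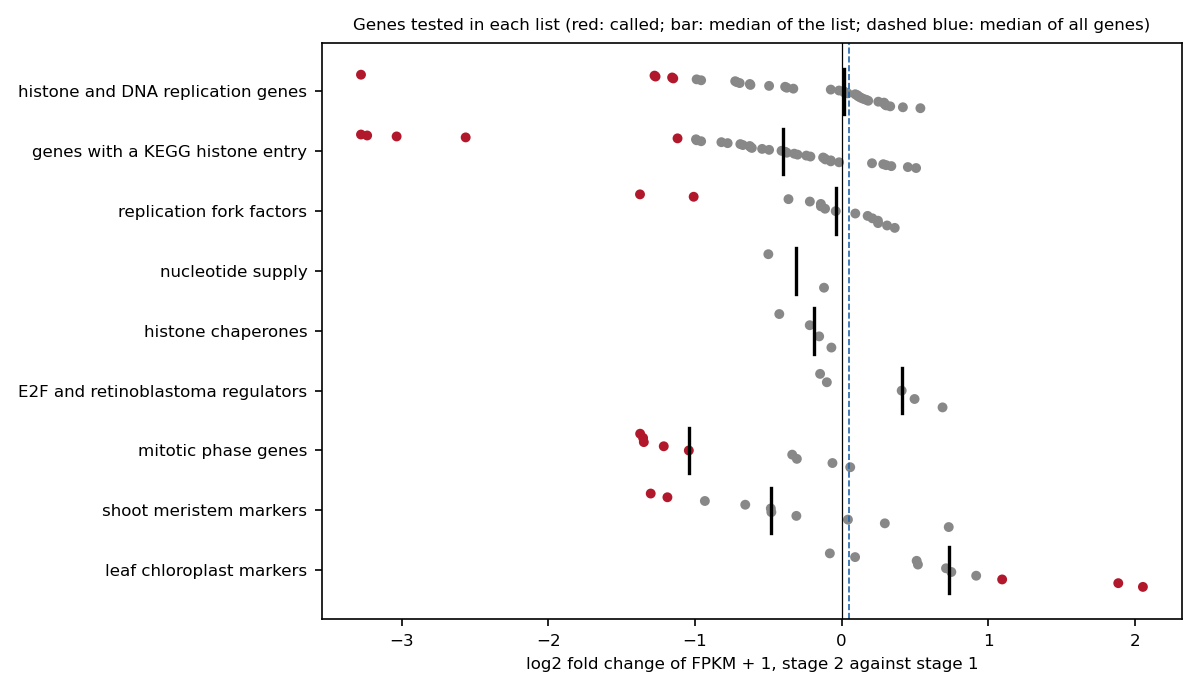
Log2 fold change of FPKM + 1, stage 2 against stage 1 (x axis), of each gene tested in 9 lists (rows; vertical offsets only separate points), with called genes in red and the median of the list as a bar. The mitotic phase genes have a median of -1.04 and the E2F and retinoblastoma regulators 0.41, while the leaf chloroplast markers lie to the right (median 0.73).

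In the 9 libraries 19210 to 20099 genes were above 0. The value of 1 read relative to the others ranged from 0.941 to 1.12. It was taken from 14 to 40 genes per library that had been chosen for alike low values, so it cannot show whether depth differed. Log2 values of replicates correlated across genes at r = 0.974 to 0.982, the lowest pairs being those with stage 2 replicate 3, which also had the lowest stage 2 sum of core histone members (469 FPKM, against 508 and 562). Without that library 5 genes were again called lower at stage 2. Markers of the tissues in a bud moved with the stages. Of 10 leaf chloroplast markers tested, 3 were called higher at stage 2 (3.18% of all genes) and 8 rose without the fold limit (21.2%), and their summed level was 2032 to 2128 FPKM at stage 1, 3479 to 4246 at stage 2 and 3998 to 4689 at stage 3, so both later stages stayed above stage 1. Of 10 shoot meristem markers tested, 2 were called lower at stage 2 (4.66% of all genes) and then higher at stage 3 (4.92%), CUP-SHAPED COTYLEDON 2 and 3, which reached 1 FPKM only at stages 1 and 3. Without the fold limit 5 of the 10 fell at stage 2 (17.1% of all genes) and 2 rose (21.2%), while the summed level of the list went from 192 to 201 FPKM up to 236 to 252 and 275 to 279. SHOOT MERISTEMLESS (Cs2g02590), a defining meristem gene, was at 52.2 to 75.6 FPKM in every library and rose by 0.29 at stage 2 (adjusted p = 0.0141), staying 0.29 above stage 1 at stage 3 (adjusted p = 0.0193). The other that rose was a knotted-1-like 2 gene (Cs3g16460), by 0.73 at stage 2 (adjusted p = 4.70e-06), and these genes carry the rise of the sum. WUSCHEL (Cs1g25270), which marks the organizing centre, had 1.14, 0.80 and 1.13 FPKM at stage 1, 0, 0 and 0.18 at stage 2, and 1.02, 0.65 and 0.78 at stage 3. WUSCHEL too reached 1 FPKM only at stages 1 and 3, so the counts of the meristem list are a description only. The single seed storage gene, a vicilin-like gene (Cs1g23800), was at 5.79 FPKM or below, fell by 0.95 at stage 2 (adjusted p = 0.00479) and was called lower at stage 3 than at stage 1 (-1.49, adjusted p = 0.000348). The part of tissue makeup in the histone and replication results was not tested.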

How the data were processed

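RNA sequencing had been run on lemon buds at 3 stages, with 3 replicates each. FPKM of 22353 genes were deposited by the authors, who had cleaned reads (FASTX-Toolkit) and aligned them (BWA) against sweet orange. Program versions, and how reads common to several genes were counted, were not given in the sources used here. Read counts per library were not in the table, so precision rests on the replicates, and p-values measure the spread between these 9 libraries. Values were analysed as log2(FPKM + 1) for the 17729 genes with at least 1 FPKM in at least 3 of 9 libraries. limma 3.58.1 (R 4.3.3, with trend) was fitted with 1 mean per stage, and p-values were adjusted by Benjamini-Hochberg over all genes tested. Called genes had an adjusted p under 0.05 and an absolute log2 change of at least 1. Summaries and figures used Python 3.11.15, pandas 2.3.3 and matplotlib 3.10.9. The fit was tested on simulated data.

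Members and lists were chosen with earlier results of these data known. Values were given for members called in a comparison whose stages did not overlap and for the 2 most abundant of each role, with the others added for completeness after their values were seen. Alternatives were limma without trend, quantile and median scaling, no filter, a filter of 5 FPKM, pseudocounts of 0.1 and 0.01, the replicate number as a block, a fit of the 6 libraries compared only, a threshold of 0.01 on adjusted p, no limit on fold, a NOISeq-style rule (written anew, probability of at least 0.8 and absolute log2 ratio of at least 1, FPKM of 0 set to 0.01), and each library left out in turn. Sequences and coordinates were not used here.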

Additional observations from a re-analysis of the deposited data

How the results depend on the processing

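The count of genes called lower at stage 2 was 5. It was 1 with a filter of 5 FPKM, which leaves the MCM genes untested, 14 with no fold threshold, and 1 by the NOISeq-style rule (probability of at least 0.8 and absolute log2 ratio of at least 1). Genes called higher at stage 3 against stage 2 numbered 2, and 6 with a pseudocount of 0.1, 6 with 0.01, 7 with no fold threshold and 1 by the NOISeq-style rule. Those called lower at stage 3 against stage 1 numbered 2, and 7 with no fold threshold and 1 by the NOISeq-style rule. With no fold threshold the counts of 0 became 2 higher at stage 2, 3 lower at stage 3 against stage 2, and 1 higher at stage 3 against stage 1. Leaving out each library in turn gave 5 to 7 genes called lower at stage 2, 2 to 2 higher at stage 3 against stage 2, 2 to 2 lower at stage 3 against stage 1, and 0 to 0 elsewhere. Of 9 calls of a gene in a comparison, 3 were kept under every alternative, 6 were lost, all under the NOISeq-style rule, and 0 reversed; why that rule gave fewer was not tested. Deviations from stage means correlated at -0.102 to 0.0315 between libraries of the same replicate number, and at -0.081 to 0.105 between those of different numbers. No shared effect of the number was seen, but this cannot tell whether the same groups of trees were sampled again. The fit with a replicate block called 5 lower at stage 2, 2 higher at stage 3 against stage 2 and 2 lower at stage 3 against stage 1. The scaling alternatives moved no count of calls past 1.5 times. The paper gives depth only as an approximate number of clean reads per replicate, and read counts per gene were not used here. MCM, ORC and PSF3 were at 5.03 FPKM or below, and how many reads lie behind each of these low values was not computed.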

Other observations

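Among the histone genes that the words had missed, the deepest falls at stage 2 were in H2A genes. H2A Cs8g18050 had 30.3, 27.9 and 28.8 FPKM at stage 1, 2.46, 4.31 and 0.75 at stage 2, and 13.8, 9.13 and 5.62 at stage 3, a fall of 3.24 (SE 0.36, adjusted p = 3.21e-05). H2A Cs3g14190 had 18.6, 23.9 and 16.0 FPKM at stage 1, 2.26, 1.29 and 4.40 at stage 2, and 4.76, 4.49 and 4.57 at stage 3, a fall of 2.56 (SE 0.26, adjusted p = 1.74e-05). H2A Cs5g32200 had 9.31, 7.50 and 8.51 FPKM at stage 1, 0.23, 0.23 and 0 at stage 2, and 0.47, 1.34 and 3.23 at stage 3. These 3 genes were chosen after their values were seen, and with H3 Cs1g20090 they had the 4 largest falls of all genes with a histone entry.

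Other histone genes rose at stage 2, or fell at both steps. H2A Cs1g13340 had 56.7, 50.1 and 62.5 FPKM at stage 1, 72.8, 91.8 and 77.6 at stage 2, and 79.7, 82.6 and 75.7 at stage 3, a rise of 0.51 at stage 2 (SE 0.10, adjusted p = 0.00156). H2B Cs8g18010 had 175.0, 158.2 and 164.3 FPKM at stage 1, 215.9, 211.6 and 202.2 at stage 2, and 141.1, 135.1 and 144.4 at stage 3, a rise of 0.34 (SE 0.05, adjusted p = 0.00042) followed by a fall of 0.58 (adjusted p = 6.78e-06). Cs1g25120, named H1 by its KEGG entry alone, had the highest level of the genes with a histone entry. Its mean was 1399 ± 17.4 FPKM at stage 1, 915.9 ± 46.8 at stage 2 and 680.6 ± 39.8 at stage 3 (SD, n = 3). It fell by 0.61 at stage 2 (adjusted p = 4.08e-06) and by a further 0.43 from stage 2 to stage 3 (adjusted p = 7.07e-05), and was called lower at stage 3 than at stage 1 by 1.04 (SE 0.05, adjusted p = 7.08e-08), at a stage where MCM had risen again.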
